A study of Mus musculus with 19 samples.

Results

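CD8 and CD4 T cells taken from the same liver metastases were compared in 3 mice labelled as Tet2 knockouts throughout the blood lineages. The 6 libraries of this genotype were chosen by their labels out of 19 in the series: each of 3 animals gave 1 CD8 and 1 CD4 library, and libraries were paired by animal number. These Vav1CreTet2KO mice carried floxed Tet2 with a Cre driven by Vav1, a promoter active across blood cells, so that T cells, natural killer cells and myeloid cells were all targeted. Tet2fl/fl controls (3 animals, 6 libraries) carried the floxed alleles and no Cre is named for them. Cd4CreTet2KO mice (7 libraries, 2 animals with both cell types) carried the floxed alleles with a Cre driven by Cd4, a promoter active in T cells. Every group had received Venus-AKTPM/LOH colorectal cancer cells by injection into the spleen, and tumours were taken at day 30; the labels give no age. T lymphocytes were sorted by flow cytometry on CD45, CD3ε, CD4 and CD8α, and their total RNA was sequenced.

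CD8 T cells recognise peptides on MHC class I and kill target cells by releasing perforin and granzymes from granules. CD4 T cells recognise peptides on MHC class II, and include helper cells and regulatory T cells, which carry the transcription factor Foxp3 and restrain other lymphocytes. The choice between these lineages is made in the thymus, where the factors Runx3 and ThPOK (Zbtb7b) oppose each other. TET2 oxidises methylated cytosine in DNA, a step towards its removal.

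Libraries of replicate 1 stood apart. The CD4 library of replicate 1 held 707866 reads on genes, against 14539928 and 7501026 in the other CD4 libraries and 8333458 to 12568865 in the CD8 libraries. In the CD8 library of replicate 1, 50.6% of low counts were odd, against 13.1% to 30.7% in the 18 other libraries of the series, so its total may be in another unit. Median correlations with libraries of the same cell type were 0.737 for CD4 replicate 1, 0.829 for CD4 replicate 2 and 0.837 for CD8 replicate 1, and 0.899 to 0.913 for the other 3 libraries. Ribosomal protein genes took 6.15% to 12.2% of reads. Levels are RPKM, in which reads are divided by gene length and library size. The authors made the CD8 and CD4 tables separately, so levels set across them rest on that scaling. Values in every sentence below follow the order of replicates 1, 2 and 3. Some of the calls that change without replicate 1 are given, and not all.

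The markers of the sort separated the libraries. Cd8a, which encodes the chain used in the sort, stood at 103, 169 and 113 RPKM in CD8 cells and at 0, 0.0790 and 0.232 RPKM in CD4 cells. Cd4 stood at 0.0955, 1.59 and 0.674 RPKM in CD8 cells and at 39.5, 87.03 and 122.4 RPKM in CD4 cells. Both genes were selected for by the antibodies and so check the labels. Cd3e, whose CD3 chain signals for the T cell receptor in both cell types, stood at 161, 199.6 and 148 RPKM in CD8 cells and at 160.3, 178.03 and 142 RPKM in CD4 cells. Tet2, the targeted gene, stood at 6.28, 5.57 and 2.93 RPKM in CD8 cells and at 4.31, 5.65 and 2.77 RPKM in CD4 cells. Its CD8 minus CD4 difference was 0.17 on the log2(RPKM + 1) scale (SE 0.30, limma adjusted p = 0.782), and a whole-gene value does not resolve a deleted exon. Among 11 genes for enzymes that add or oxidise methylcytosine, 10 were tested and 0 were called, with a median difference of 0.17, and of -0.05 without replicate 1. In these, Tet3 differed by -0.05, Dnmt1 by -0.15 and Dnmt3a by 0.27, none past the test.

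**Figure D1:**
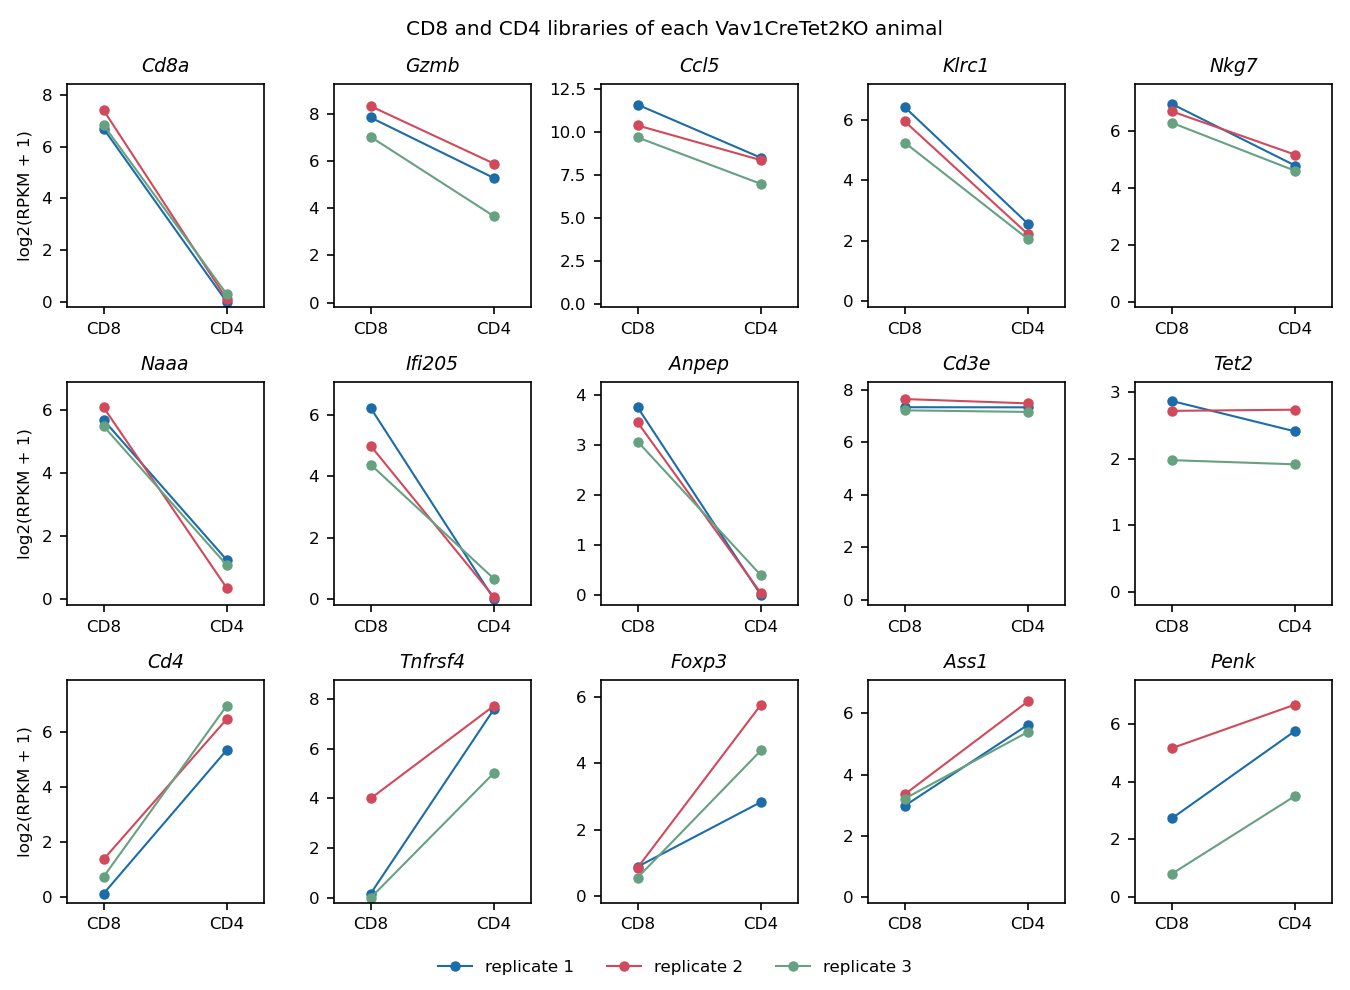
Levels of 15 genes as log2(RPKM + 1) in the CD8 and the CD4 library of each Vav1CreTet2KO animal, 1 line per animal. Lines fall from CD8 to CD4 for Cd8a, Gzmb, Ccl5, Klrc1, Nkg7, Naaa, Ifi205 and Anpep, run nearly level for Cd3e, and climb for Cd4, Tnfrsf4, Foxp3, Ass1 and Penk in all 3 animals.

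The comparison across genes asked which transcripts distinguish the cell types in this genotype. Of 25639 genes, 9082 reached 1 RPKM in 3 or more of the 6 libraries and were tested with limma on log2(RPKM + 1), and a gene was called at a Benjamini-Hochberg adjusted p of 0.05 over all of them. Animals entered as a block, and libraries of all 3 genotypes shared the estimate of spread. Of these genes 73 were called (0.804%), 45 higher in CD8 cells (0.495%) and 28 higher in CD4 cells (0.308%). The median difference of all tested genes was 0.20, and -0.02 without replicate 1. All 73 called genes moved the same way in all 3 animals, whereas 16.6% of all tested genes were higher in CD8 cells and 9.82% higher in CD4 cells in every animal. For 60 of the 73 the CD8 and CD4 values did not overlap, which held for 9.09% of all tested genes. At an unadjusted p of 0.05, 1501 genes passed.

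The count depended on single animals. Without replicate 1 there were 81 calls, without replicate 2 there were 19 and without replicate 3 there were 404. Of the 73 genes, 56 remained called without replicate 1, 17 without replicate 2 and 66 without replicate 3, and none changed sign. Without the animal block 158 genes were called, with only these 6 libraries in the fit 8, by edgeR on recovered reads 39 and by DESeq2 663. The 16 genes called without replicate 1, without replicate 2 and without replicate 3 alike were Cd8a, Cd8b1, Ifi205, Klrc1, Anpep, Adgrg5, Gzmb, Ccl5 and Ctsw on the CD8 side and Cd4, Tnfrsf4, Ass1, Ikzf2, Penk, H2bc3 and H2ac15 on the CD4 side. Each of the others lost its call without at least 1 animal, most often replicate 2. In bulk libraries, fewer cells of a type and less RNA per cell cannot be told apart.

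**Figure D2:**
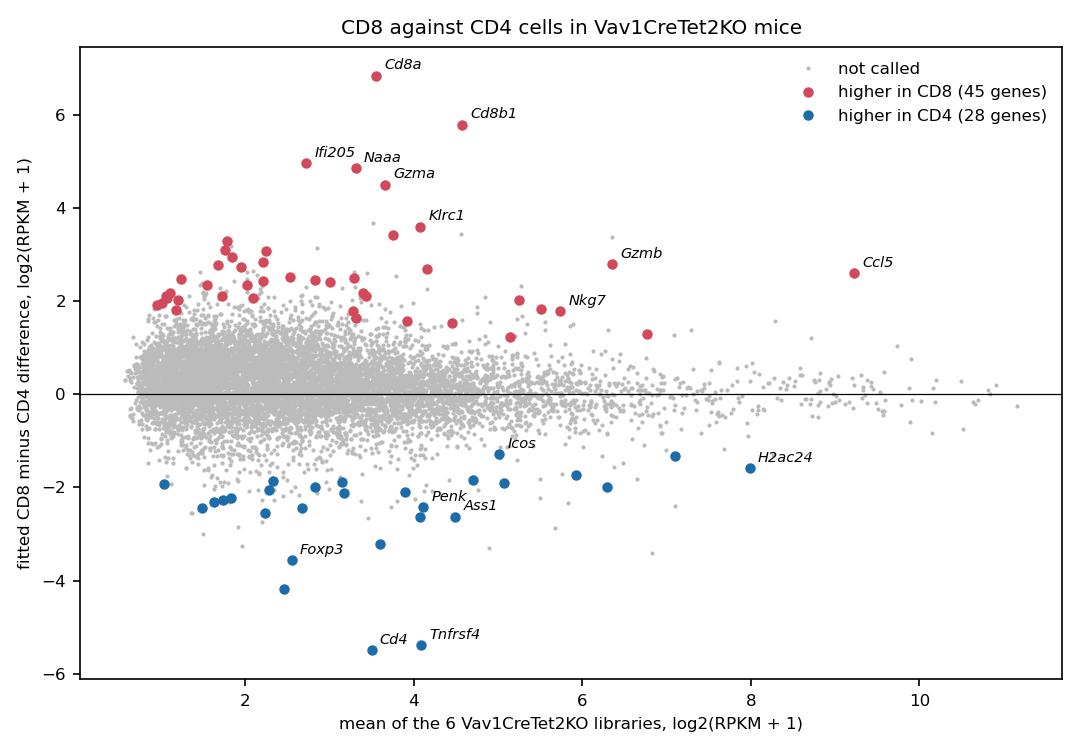
Fitted CD8 minus CD4 difference of each of 9082 tested genes against its mean over the 6 Vav1CreTet2KO libraries, both on the log2(RPKM + 1) scale. The 45 genes called higher in CD8 cells (red) reach 6.84 for Cd8a, and the 28 called higher in CD4 cells (blue) reach -5.50 for Cd4.

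Most tested genes of CD8 identity were higher in CD8 cells. Of 7 in the list, 6 were tested and 4 were called, all higher in CD8 cells, with a median difference of 1.93. These counts include Cd8a, which the sort itself selected for. Cd8b1, the partner chain of CD8α, stood at 161, 201 and 172 RPKM in CD8 cells and at 0, 2.79 and 7.73 RPKM in CD4 cells, a difference of 5.79 (SE 0.48, limma adjusted p = 0.000807). Ctsw, a cathepsin of killer lymphocytes, stood at 130.3, 78.7 and 59.8 RPKM in CD8 cells and at 36.2, 21.8 and 15.3 RPKM in CD4 cells, a difference of 1.84 (limma adjusted p = 0.00754). Each CD8 library lay above every CD4 library for both genes. Cd7, a T and natural killer cell surface protein, was even across CD8 libraries (72.6, 78.9 and 75.2 RPKM) and varied in CD4 cells (7.16, 46.3 and 16.5 RPKM). Its difference of 2.02 had a limma adjusted p of 0.0471, and of 0.0672 without replicate 1 and 0.0587 without replicate 3. Runx3, the CD8 lineage factor, was not called (0.14). It stood at 18.04, 35.1 and 22.4 RPKM in CD8 cells and at 33.8, 14.9 and 20.6 RPKM in CD4 cells. Eomes, a factor of effector CD8 cells, did not reach the level tested and stood at 1.55, 0.636 and 3.97 RPKM in CD8 cells and at 0 in every CD4 library.

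Several cytotoxic granule genes were higher in CD8 cells. Of 23 in the list 17 were tested, 5 rose and 0 fell, with a median difference of 1.45, beside 0.20 for all tested genes. Gzmb, the serine protease that starts apoptosis in target cells, stood at 231, 323 and 130.1 RPKM in CD8 cells and at 38.1, 58.8 and 11.7 RPKM in CD4 cells. All CD8 libraries lay above all CD4 libraries, and the difference was 2.79 (SE 0.32, limma adjusted p = 0.00548). Gzma, a second granule protease, stood at 104, 84.7 and 23.3 RPKM in CD8 cells and at 0, 3.06 and 3.61 RPKM in CD4 cells, a difference of 4.50 (SE 0.61, limma adjusted p = 0.0125). Its 0 in CD4 replicate 1 has little depth behind it, since 3 reads there are worth 1.61 RPKM.

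Nkg7, a protein of the granule membrane, stood at 121.8, 101.5 and 76.6 RPKM in CD8 cells and at 26.4, 34.7 and 23.1 RPKM in CD4 cells. Its difference was 1.79 (SE 0.26, limma adjusted p = 0.015). Prf1, which encodes perforin, the pore that lets granzymes enter the target, stood at 4.43, 8.56 and 11.9 RPKM in CD8 cells and at 0, 0.451 and 5.22 RPKM in CD4 cells. The groups overlapped, since CD4 replicate 3 lay above CD8 replicate 1, and the difference of 2.07 was close to the threshold (limma adjusted p = 0.0496). It was not called without replicate 1 (limma adjusted p = 0.0795) or without replicate 2 (0.211). Of the 12 members that were not called, 8 had positive and 4 had negative differences. Tnfsf10, the death ligand TRAIL, stood at 3.98, 17.3 and 7.82 RPKM in CD8 cells and at 0, 8.03 and 4.95 RPKM in CD4 cells. Fasl, another death ligand, differed by 1.52, Serpinb9, an inhibitor that shields cells from granzyme B, by 1.47 and Serpinb6b, a related serpin, by 1.45. The negative members were Stx11, a syntaxin of granule release (-0.87), Srgn, the granule proteoglycan (-0.66), Rab27a, a granule docking factor (-0.29), and Ctsc, which activates granzymes (-0.29). Stx11 and Srgn were lower in CD8 cells in all 3 animals. Gzmc, another granzyme, stood at 9.01, 6.16 and 1.76 RPKM in CD8 cells and at 0, 0 and 1.74 RPKM in CD4 cells, and was not called. Gzmk, Gzmm and Gzmd to Gzmg did not reach the level tested. Without replicate 2 the list held 2 calls.

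Promoter sequences of 4 killer-cell genes are shown because they are called higher in CD8 cells and hold the core letters bound by RUNX factors. RefSeq's GRCm38.p6 table gave windows for 53 of the 73 called genes, and the 250 bases before each start were read 5′ to 3′ on the gene's strand. Capitals mark TGTGGT or its reverse complement ACCACA. The Gzma window lies at chr13:113100982-113101231 (minus strand), that of Gzmb at chr14:56262335-56262584 (minus strand), that of Prf1 at chr10:61297586-61297835 (plus strand) and that of Klrc1, a receptor described below, at chr6:129678974-129679223 (minus strand).
Gzma: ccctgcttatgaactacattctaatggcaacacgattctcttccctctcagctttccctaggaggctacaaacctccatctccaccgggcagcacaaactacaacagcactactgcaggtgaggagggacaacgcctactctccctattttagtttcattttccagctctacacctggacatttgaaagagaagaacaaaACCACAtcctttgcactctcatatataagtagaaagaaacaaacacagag
Gzmb: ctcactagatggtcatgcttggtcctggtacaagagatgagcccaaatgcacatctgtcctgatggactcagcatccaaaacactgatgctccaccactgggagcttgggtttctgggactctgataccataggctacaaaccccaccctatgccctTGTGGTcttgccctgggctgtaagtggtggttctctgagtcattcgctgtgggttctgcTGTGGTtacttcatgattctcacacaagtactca
Prf1: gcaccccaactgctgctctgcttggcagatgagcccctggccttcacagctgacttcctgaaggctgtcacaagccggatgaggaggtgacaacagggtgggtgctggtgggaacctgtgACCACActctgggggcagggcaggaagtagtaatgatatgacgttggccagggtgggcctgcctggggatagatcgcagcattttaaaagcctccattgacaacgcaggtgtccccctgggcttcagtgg
Klrc1: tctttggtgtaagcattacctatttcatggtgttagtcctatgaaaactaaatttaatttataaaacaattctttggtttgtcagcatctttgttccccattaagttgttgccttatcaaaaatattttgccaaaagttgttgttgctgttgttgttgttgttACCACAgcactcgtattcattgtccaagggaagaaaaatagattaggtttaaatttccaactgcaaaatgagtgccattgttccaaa

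The Gzmb window held the letters at 2 places and the others at 1. Of 33 genes called higher in CD8 cells with a window, 14 held TGTGGT or ACCACA in it (42.4%), and of 20 called higher in CD4 cells 1 did, the histone gene H2bc3. Of all tested genes with a window, 927 of 7165 did (12.9%), and so did 4614 of all 32851 windows of the RefSeq table. Beside the genes printed, those with the letters were Adgrg5, Anpep, Cd160, F2r, Havcr2, Ifi205, Jaml, Klrk1, Nkg7 and Sytl3. The T-box core GGTGTG (or CACACC) was held by 4 of the 33 CD8-side genes and 3 of the 20 CD4-side genes, and by 17.6% of tested genes. None of the printed windows held it, so no motif overlaps another in them. A match is a description of letters and not of binding, and these genes were picked by the comparison itself.

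Several receptors shared with natural killer cells were higher in CD8 cells. Of 28 in the list 18 were tested, 6 rose and 0 fell, with a median difference of 1.90, and of 1.72 without Klra5, which was listed at 0 in every CD4 library. Klrc1 encodes NKG2A, an inhibitory receptor. It stood at 85.2, 61.1 and 37.1 RPKM in CD8 cells and at 4.91, 3.65 and 3.16 RPKM in CD4 cells. Every CD8 library lay above every CD4 library, and the difference was 3.60 (SE 0.34, limma adjusted p = 0.00137). Klrd1, which encodes its partner CD94, stood at 66.2, 35.4 and 20.1 RPKM in CD8 cells and at 27.96, 9.68 and 5.84 RPKM in CD4 cells. Here the groups overlapped and each animal was higher in CD8 cells, by 1.54 (SE 0.29, limma adjusted p = 0.0473).

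Klrk1, the activating receptor NKG2D, stood at 34.8, 17.7 and 15.8 RPKM in CD8 cells and at 2.84, 4.39 and 4.83 RPKM in CD4 cells, a difference of 2.18 (SE 0.37, limma adjusted p = 0.0318). Cd160, a receptor of cytotoxic lymphocytes, stood at 17.6, 13.8 and 8.74 RPKM in CD8 cells and at 1.64, 1.90 and 0.824 RPKM in CD4 cells, a difference of 2.53 (limma adjusted p = 0.0103). Slamf7, a homophilic receptor of killer cells, differed by 2.42 (limma adjusted p = 0.0132) and Klra9, of the Ly49 family, by 2.94 (limma adjusted p = 0.0444, and 0.0736 without replicate 1). Ly49 genes are near copies of each other, so that reads may be split among them. Without replicate 2 the list held 1 call, Klrc1.

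Markers used here for natural killer cells themselves share genes with these lists. Of 8 such markers 5 were tested and 2 were called, Gzma and Klra9. Their summed level was 135, 105 and 38.1 RPKM in CD8 cells, most of it Gzma, and 2.43, 5.04 and 10.1 RPKM in CD4 cells. Of the 8 markers, 7 or 8 were above 0 in each CD8 library and 1, 5 and 6 in the CD4 libraries. Ncr1, a defining marker of natural killer cells, stood at 3.36, 4.83 and 3.23 RPKM in CD8 cells and at 0, 0.275 and 1.35 RPKM in CD4 cells. Klrb1c, the other, stood at 3.92, 2.12 and 6.32 RPKM in CD8 cells and at 0, 0.764 and 2.92 RPKM in CD4 cells. Their part in the difference of killer-cell receptors was not tested.

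Ccl5, a chemokine released by effector T cells, was the most abundant of the called genes by RPKM. It stood at 3020.5, 1309 and 807 RPKM in CD8 cells and at 356, 323 and 124 RPKM in CD4 cells, without overlap. The difference was 2.60 (SE 0.22, limma adjusted p = 0.000833). Of 7 chemokines tested it was the only call, and the median of the list was 1.596, and 0.33 without replicate 1. Ccl3 stood at 83.3, 89.9 and 61.8 RPKM in CD8 cells and at 0, 27.04 and 12.1 RPKM in CD4 cells (limma adjusted p = 0.0736, and 0.0391 without replicate 1). Ccl4 stood at 79.97, 96.99 and 82.2 RPKM in CD8 cells and at 0, 131 and 37.8 RPKM in CD4 cells. Xcl1, the ligand of the dendritic cell receptor Xcr1, differed by 1.596 and was not called.

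T helper 1 genes gave 0 calls of 9 tested, with a median of 0.73, and of 0.29 without replicate 1; without replicate 3, 2 were called higher in CD8 cells. Tbx21, the factor T-bet, stood at 36.8, 52.5 and 26.7 RPKM in CD8 cells and at 5.003, 23.6 and 13.7 RPKM in CD4 cells (limma adjusted p = 0.0713). Ifng, interferon gamma, stood at 161, 107 and 56.98 RPKM in CD8 cells and at 29.1, 34.8 and 38.7 RPKM in CD4 cells (limma adjusted p = 0.0781). Neither gene overlapped between the cell types, and neither passed the test. Of the 11 secreted cytokines tested 0 were called, and without replicate 1 there was 1 call, higher in CD4 cells.

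Several regulatory T cell genes were higher in CD4 cells. Of 21 in the list 17 were tested, 0 were higher in CD8 cells and 5 were higher in CD4 cells, with a median difference of -1.58. Foxp3 stood at 0.852, 0.818 and 0.477 RPKM in CD8 cells and at 6.15, 53.6 and 20.005 RPKM in CD4 cells. Every CD4 library lay above every CD8 library, and the difference was -3.56 (SE 0.47, limma adjusted p = 0.0105). Ikzf2, the factor Helios, stood at 0.230, 2.29 and 0.841 RPKM in CD8 cells and at 11.6, 14.1 and 6.78 RPKM in CD4 cells, a difference of -2.55 (SE 0.34, limma adjusted p = 0.0105). Foxp3 was not called without replicate 2 (limma adjusted p = 0.0514).

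The other 3 called members were receptors of the TNF family that give costimulatory signals. Tnfrsf4 (OX40) stood at 0.123, 14.96 and 0 RPKM in CD8 cells and at 191, 210.3 and 31.5 RPKM in CD4 cells. Its CD8 library of replicate 2 lay apart from the other CD8 libraries and still below every CD4 library, and the difference was -5.39 (SE 0.52, limma adjusted p = 0.00158). Tnfrsf18 (GITR) stood at 17.9, 13.9 and 8.07 RPKM in CD8 cells and at 60.99, 107 and 16.9 RPKM in CD4 cells, a difference of -1.85 (limma adjusted p = 0.0375). Tnfrsf9 (4-1BB) stood at 1.57, 5.51 and 1.69 RPKM in CD8 cells and at 12.1, 34.9 and 4.92 RPKM in CD4 cells, a difference of -1.99 (limma adjusted p = 0.0193). For both of these CD4 replicate 3 fell within the CD8 range. Il2ra, the high-affinity interleukin 2 receptor chain, differed by -1.53 (limma adjusted p = 0.0776) and Areg, a growth factor of regulatory cells in tissue, by -2.65 (0.08), both short of the test.

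Regulatory calls depended on the animals. Without replicate 1 the list held 8 calls, which added Areg (limma adjusted p = 0.00236) and Izumo1r (0.0255) among others, and without replicate 2 it held 2. Ctla4 stood at 119, 132 and 29.7 RPKM in CD8 cells and at 117, 316.4 and 58.4 RPKM in CD4 cells, a difference of -0.73 that was not called. Itgae, an integrin chain of tissue-resident cells of both types, differed by 1.09, the only positive member, and was not called.

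Genes of CD4 identity gave 2 calls of 8 tested, both higher in CD4 cells, with a median of -1.76. These counts include Cd4, which the sort itself selected for. Cd4 differed by -5.50 (SE 0.29, limma adjusted p = 1.61e-05), and St8sia6, a sialyltransferase, by -1.92 (limma adjusted p = 0.0386). St8sia6 stood at 0, 0.0145 and 0.149 RPKM in CD8 cells and at 1.78, 3.25 and 4.34 RPKM in CD4 cells. Zbtb7b, the ThPOK factor, stood at 1.07, 2.77 and 2.66 RPKM in CD8 cells and at 6.93, 8.68 and 11.1 RPKM in CD4 cells, with no overlap (limma adjusted p = 0.0741). Cd40lg, the helper signal to antigen-presenting cells, stood at 12.5, 10.9 and 7.82 RPKM in CD8 cells and at 43.3, 25.3 and 56.2 RPKM in CD4 cells (limma adjusted p = 0.0834). All 8 tested members had negative differences, and 6 were lower in CD8 cells in every animal.

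Among the helper lists, 2 of 4 tested T helper 2 genes were higher in CD4 cells. Ccr4, a chemokine receptor of helper and regulatory cells, stood at 0, 0.356 and 0.282 RPKM in CD8 cells and at 2.80, 7.22 and 7.996 RPKM in CD4 cells, a difference of -2.45 (limma adjusted p = 0.0191). Maf, a transcription factor of helper cells, stood at 2.36, 2.69 and 0.667 RPKM in CD8 cells and at 10.5, 20.7 and 12.1 RPKM in CD4 cells, a difference of -2.44 (limma adjusted p = 0.0139). Il4, Il5 and Il13 did not reach the level tested. The T helper 17 list gave 0 calls of 5 tested. The follicular helper list gave 1 of 10, Icos.

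Icos, a costimulatory receptor of the CD28 family, stood at 35.5, 22.5 and 9.49 RPKM in CD8 cells and at 87.1, 60.9 and 22.5 RPKM in CD4 cells, a difference of -1.28 (SE 0.22, limma adjusted p = 0.0295). CD4 replicate 3 lay below CD8 replicate 1, so the separation held within animals and not between groups. In the costimulation list, 4 of 17 tested members were higher in CD4 cells (Tnfrsf4, Tnfrsf9, Tnfrsf18 and Icos) and 0 in CD8 cells, with a median of -0.44. Without replicate 2, 1 was called. Without replicate 3 the median was -0.08 and 1 member was called higher in CD8 cells beside 4 higher in CD4 cells. Cd28 itself differed by -0.20 and Cd226, an adhesion receptor of killer cells, by 1.14, and neither passed the test.

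**Figure D3:**
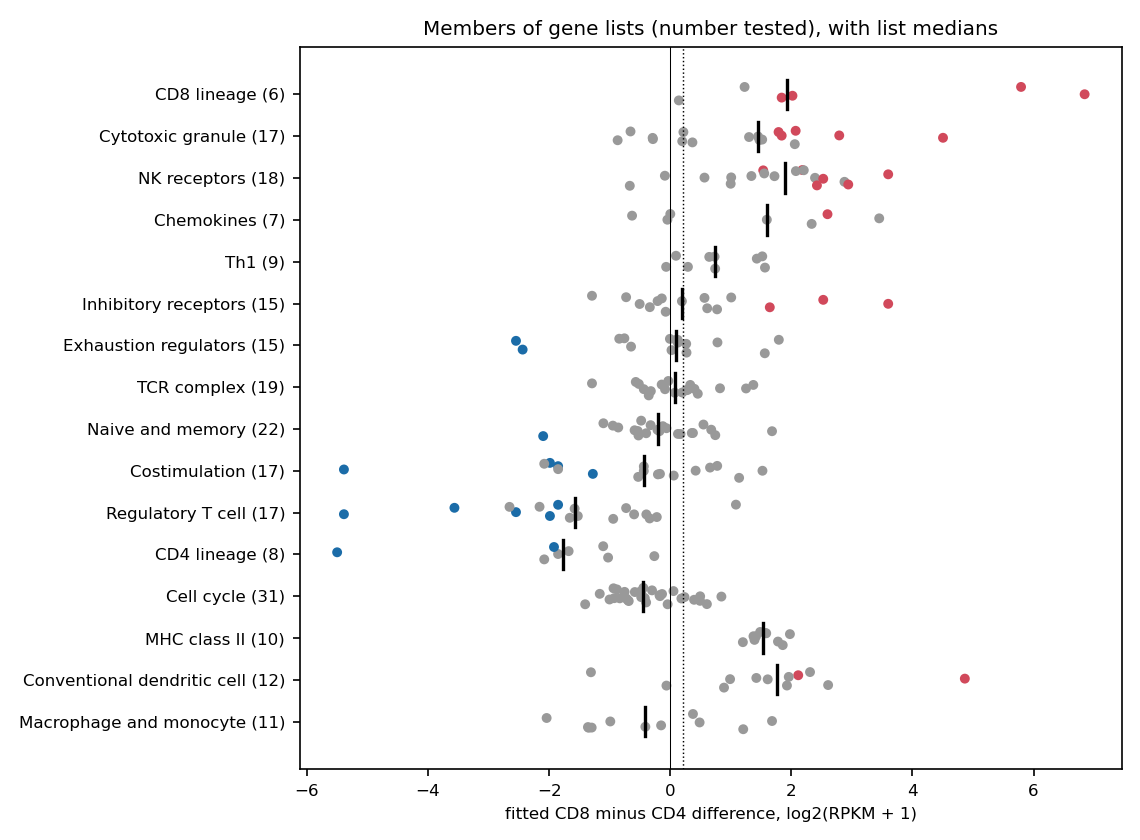
Fitted CD8 minus CD4 differences of the tested members of 16 gene lists, 1 point per gene, with the number tested in brackets and a bar at each list's median. Red points were called higher in CD8 cells, blue ones higher in CD4 cells and grey ones were not called; the dotted line is the median of all tested genes, 0.20. Medians run from 1.93 for CD8 lineage genes to -1.76 for CD4 lineage genes. The CD8 list includes Cd8a and the CD4 list Cd4, both selected for by the sort.

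Inhibitory receptors gave calls on the CD8 side only. Of 15 tested, 3 were higher in CD8 cells (Klrc1, Cd160 and Havcr2) and 0 in CD4 cells, with a median of 0.19, and of 0.37 without replicate 1. Havcr2 (TIM-3) stood at 22.3, 25.3 and 7.80 RPKM in CD8 cells and at 7.16, 8.42 and 1.296 RPKM in CD4 cells, a difference of 1.64 (SE 0.29, limma adjusted p = 0.0357). CD8 replicate 3 lay within the CD4 range, and each animal was higher in CD8 cells. Pdcd1 (PD-1) stood at 27.5, 61.6 and 13.3 RPKM in CD8 cells and at 13.2, 18.2 and 10.5 RPKM in CD4 cells (difference 1.01, limma adjusted p = 0.197). Lag3 differed by -0.50 and Tigit by -0.07, and Lag3 stood at 6.46, 27.5 and 4.38 RPKM in CD8 cells and at 34.6, 10.1 and 7.23 RPKM in CD4 cells. Cd5, which dampens T cell receptor signals, differed by -1.29 (limma adjusted p = 0.0511), and was called higher in CD4 cells with TMM scaling (0.0239) and size factors (0.0226).

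Regulators linked to exhaustion gave 2 calls of 15 tested, both higher in CD4 cells. These were Maf and Ikzf2, which also stand in the helper and regulatory lists, and the list's median was 0.10, and -0.17 without replicate 2. Tox, a factor of exhausted cells, stood at 2.60, 10.2 and 6.86 RPKM in CD8 cells and at 12.6, 12.1 and 9.27 RPKM in CD4 cells (difference -0.84, limma adjusted p = 0.298). Nr4a2, induced by receptor signals, differed by 1.56 (limma adjusted p = 0.0619), and Cd38 by 1.79 (0.123).

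Genes of naive and memory cells gave 1 call of 22 tested, with a median of -0.19 that was 0.03 without replicate 2 and 0.11 without replicate 3. S1pr1, the receptor that guides lymphocytes out of tissue, stood at 1.73, 4.95 and 21.97 RPKM in CD8 cells and at 21.1, 18.7 and 65.97 RPKM in CD4 cells. Its difference was -2.10 (SE 0.31, limma adjusted p = 0.015). Tcf7, which encodes TCF-1, stood at 48.7, 54.9 and 148 RPKM in CD8 cells and at 52.5, 41.2 and 208 RPKM in CD4 cells. Klf2 stood at 37.3, 46.04 and 128 RPKM in CD8 cells and at 20.2, 35.5 and 137 RPKM in CD4 cells. For S1pr1, Tcf7 and Klf2 both libraries of replicate 3 were the highest of their cell type. Among the genes of the T cell receptor and its signalling, 0 of 19 tested were called, and 2 without replicate 3; the median was 0.08, and -0.01 without replicate 1. Of 11 tested integrin chains 1 was called, Itga1, a collagen-binding chain of resident cells, with a difference of 2.85 (limma adjusted p = 0.041, and 0.0564 without replicate 1).

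Some markers of antigen-presenting cells were also called. Of 12 conventional dendritic cell markers all were tested, 2 were called higher in CD8 cells and 0 in CD4 cells, with a median of 1.77. Differences were positive for 10 and negative for 2, down to -1.31, and 1 marker was lower in CD8 cells in all 3 animals. Naaa, a lysosomal acid amidase, stood at 50.1, 66.5 and 43.6 RPKM in CD8 cells and at 1.35, 0.264 and 1.10 RPKM in CD4 cells, a difference of 4.86 (SE 0.60, limma adjusted p = 0.00754). Xcr1, the receptor that marks cross-presenting dendritic cells, stood at 2.49, 12.002 and 6.13 RPKM in CD8 cells and at 0, 1.35 and 0.699 RPKM in CD4 cells, a difference of 2.11 (limma adjusted p = 0.0444). Both lay higher in every CD8 library than in any CD4 library, and neither was called without replicate 2 (limma adjusted p = 0.061 and 0.204).

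The summed level of the dendritic markers was 140, 181 and 112 RPKM in CD8 cells and 28.2, 29.5 and 27.9 RPKM in CD4 cells. In control mice it was 14.2 to 69.6 RPKM in CD8 cells and 8.31 to 15.5 RPKM in CD4 cells. In Cd4CreTet2KO mice it was 44.3 to 304 RPKM in CD8 cells and 6.81 to 15.04 RPKM in CD4 cells, so that their CD8 range held that of Vav1CreTet2KO mice. Of the defining markers, Flt3 stood at 17.3, 16.98 and 8.71 RPKM in CD8 cells and at 0, 3.52 and 4.82 RPKM in CD4 cells, while Clec9a stood at 10.4, 15.01 and 9.91 RPKM and at 16.9, 3.09 and 2.49 RPKM. In CD4 replicate 1, 6 of the 12 markers were above 0, against 10 to 12 in each other library. Flt3 and Xcr1 were at 0 there, and no defining marker was at 0 in the other 5 libraries. A contribution of dendritic cells to the CD8 libraries was not tested.

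MHC class II genes, which present antigen to CD4 cells, did not pass the test. All 10 tested had positive differences (1.20 to 1.98, median 1.53) and 0 were called, with 2 called without replicate 3. Their summed level was 2756, 1569 and 1008 RPKM in CD8 cells and 740, 813 and 404 RPKM in CD4 cells, against 69.2 to 404 RPKM in CD8 cells and 101 to 212 RPKM in CD4 cells of controls. In Cd4CreTet2KO mice it was 342 to 2940.1 RPKM in CD8 cells and 98.4 to 230.4 RPKM in CD4 cells, over all their libraries. The median CD8 minus CD4 difference of these mice over the 10 genes was 1.09, from the animals with both cell types only. Cd74, the invariant chain, stood at 806, 707 and 448 RPKM in CD8 cells and at 297, 328 and 215 RPKM in CD4 cells (limma adjusted p = 0.122). Ciita, the activator of these genes, stood at 5.16, 9.07 and 4.96 RPKM in CD8 cells and at 0.131, 1.94 and 1.33 RPKM in CD4 cells (limma adjusted p = 0.105).

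**Figure D4:**
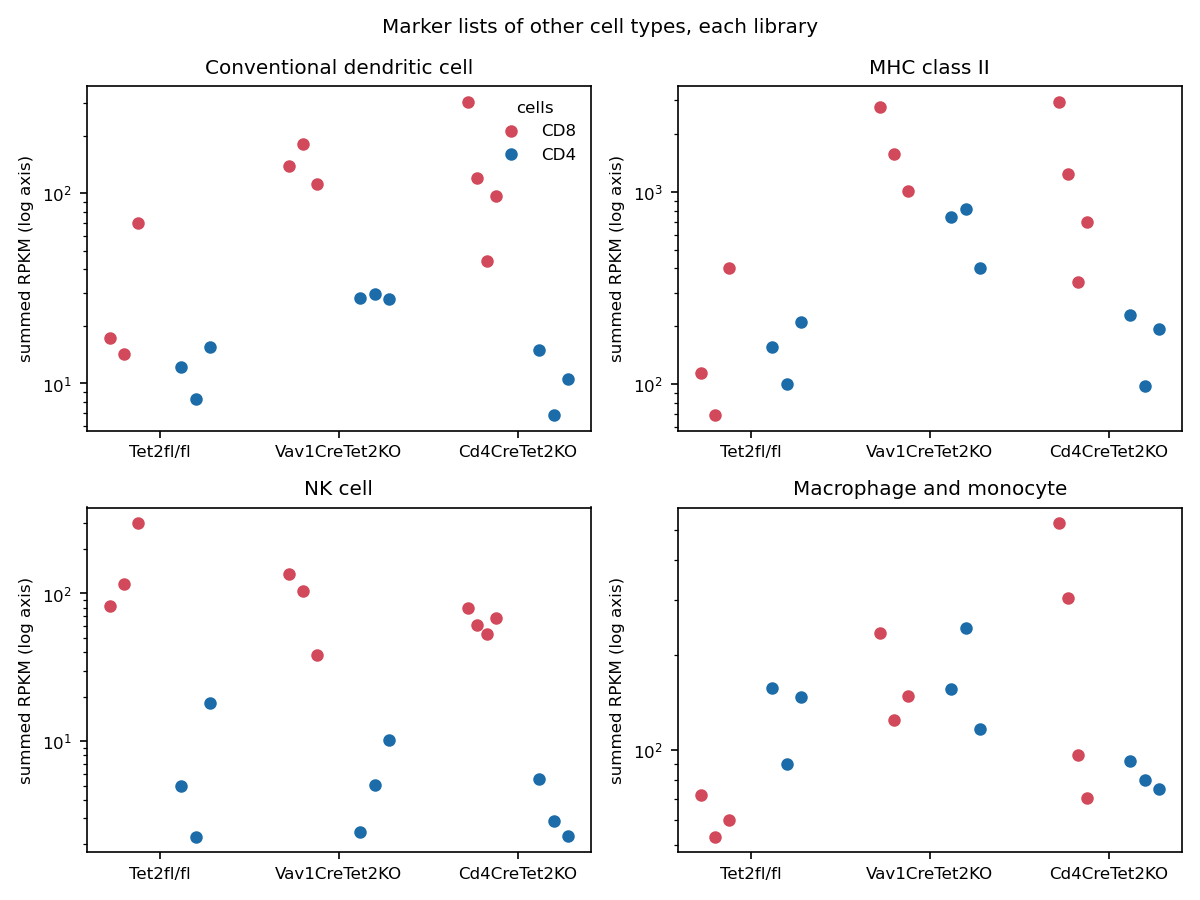
Summed RPKM of 4 marker lists in each of the 19 libraries, on log axes, by genotype and cell type. In Vav1CreTet2KO mice the dendritic sums are 112 to 181 RPKM in CD8 cells and 27.9 to 29.5 RPKM in CD4 cells, and the macrophage sums overlap.

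Several other genes called higher in CD8 cells lie outside the lists, and they were picked out after their values were seen. Ifi205, of the interferon-inducible p200 family, stood at 74.1, 30.9 and 19.9 RPKM in CD8 cells and at 0, 0.0438 and 0.579 RPKM in CD4 cells, a difference of 4.96 (SE 0.51, limma adjusted p = 0.00211). Anpep, the aminopeptidase CD13, stood at 12.6, 9.99 and 7.44 RPKM in CD8 cells and at 0, 0.0269 and 0.316 RPKM in CD4 cells, a difference of 3.29 (SE 0.36, limma adjusted p = 0.00382). Adgrg5, an adhesion receptor, stood at 7.63, 13.5 and 6.72 RPKM in CD8 cells and at 0, 0 and 0.565 RPKM in CD4 cells, a difference of 3.09 (limma adjusted p = 0.00554). None of these 3 overlapped between the cell types.

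Zfp366, a nuclear regulator of dendritic cells, differed by 2.79 (limma adjusted p = 0.0268), Tlr11, a receptor for protozoan profilin, by 2.07 (0.0444) and Treml4, of the TREM family, by 1.81 (0.0444). Sdc3, a syndecan, differed by 2.43 (limma adjusted p = 0.0209). Plbd1 differed by 3.43 (limma adjusted p = 0.0444) and Ppt1, a lysosomal thioesterase, by 2.69 (0.0134). Zfp366, Tlr11 and Treml4 were not called without replicate 1 (limma adjusted p = 0.0574, 0.0563 and 0.106). Zfp366, Tlr11, Treml4, Plbd1 and Ppt1 share the direction of the dendritic marker sums above. They were picked as genes called higher in CD8 cells, so this direction was set by the choice. A part of dendritic cells in their levels was not tested. Cd34, Hepacam2 and Gpr141b were at 0 in every CD4 library. With every CD4 library set at the worth of 3 reads, their differences were still 1.83, 1.61 and 2.22 on the log2(RPKM + 1) scale. Of the 45 genes, 22 were at 0 in the shallow CD4 replicate 1. Of the receptor segments, Trgc2, a gamma chain constant gene, differed by 3.07 (limma adjusted p = 0.0178) and Trbv12-2, a beta chain variable segment, by 2.34 (0.0295).

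Of 18 macrophage and monocyte markers 11 were tested and 0 were called, with a median of -0.41. Their sums were 236, 124 and 148 RPKM in CD8 cells and 157, 243 and 117 RPKM in CD4 cells. Lyz2 stood at 3.45, 7.61 and 5.67 RPKM in CD8 cells and at 4.93, 31.8 and 9.26 RPKM in CD4 cells. Hepatocyte markers summed to 4.07 to 23.2 RPKM in CD8 cells and 0.721 to 17.9 RPKM in CD4 cells, and markers of colorectal epithelium to 10.5 to 17.1 and 0 to 9.44 RPKM, with 0 calls in either list. Plasmacytoid dendritic markers gave 0 calls of 11 tested, and without replicate 1 there was 1 call, higher in CD4 cells. Neutrophil, B cell and stromal markers gave 0 calls of 1, 2 and 3 tested. Of 8 gamma delta and innate-like T cell markers 4 were matched in the tables and 0 reached the level tested. Their sums were 6.85, 4.96 and 1.45 RPKM in CD8 cells and 0.540, 1.14 and 0.358 RPKM in CD4 cells. Of 8 erythroid and platelet markers 0 reached the level tested.

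On the CD4 side the call of smallest p outside the lists was Ass1, the enzyme that makes argininosuccinate on the way to arginine. It stood at 6.87, 9.22 and 8.26 RPKM in CD8 cells and at 48.5, 83.2 and 41.1 RPKM in CD4 cells, a difference of -2.63 (SE 0.25, limma adjusted p = 0.00137). Each CD4 library lay above each CD8 library. Selenop, a secreted selenium carrier, stood at 1.14, 9.41 and 12.98 RPKM in CD8 cells and at 29.6, 48.01 and 47.95 RPKM in CD4 cells, a difference of -2.63 (SE 0.36, limma adjusted p = 0.0127). Mien1 differed by -2.12 (limma adjusted p = 0.0444) and Ppil1, of the cyclophilin family, by -2.06 (0.0209). Casp4, an inflammatory caspase, differed by -2.30 (limma adjusted p = 0.0196), Ramp3, a receptor-modifying protein, by -2.28 (0.0471) and E2f2, a cell cycle factor, by -2.22 (0.0471). Trbv2, a beta chain variable segment, stood at 0, 0.168 and 0.865 RPKM in CD8 cells and at 24.7, 41.1 and 10.8 RPKM in CD4 cells, a difference of -4.17 (limma adjusted p = 0.0149).

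Replication-dependent histone genes, grouped after their values were seen, were called on the CD4 side in 4 cases. H2ac15 stood at 117, 119.6 and 44.98 RPKM in CD8 cells and at 365, 229 and 121.5 RPKM in CD4 cells, a difference of -1.33 (SE 0.20, limma adjusted p = 0.0191). H1f5, a linker histone, stood at 7.76, 36.2 and 15.04 RPKM in CD8 cells and at 41.5, 143 and 43.3 RPKM in CD4 cells, a difference of -1.90 (SE 0.30, limma adjusted p = 0.0209). H2bc3 differed by -1.99 (limma adjusted p = 0.0205) and H2ac24 by -1.59 (0.0444). Of 56 tested histone genes 44 had negative differences, beside 3315 of all 9082 tested genes. Since the group was formed after its values were seen, this share may be set in part by that choice. No histone gene passed an interaction test against another genotype. The median difference of the histone genes was -0.89, beside 0.46 in controls and 0.06 in the Cd4CreTet2KO mice with both cell types. Without replicate 2 the median was -0.35 and 2 were called, and 0 were called without the animal block or with only the 6 libraries in the fit. Near-identical copies can share reads. The cell cycle list gave 0 calls of 31 tested, with a median of -0.44; Mki67 stood at 34.9, 40.6 and 8.15 RPKM in CD8 cells and at 34.9, 60.4 and 28.7 RPKM in CD4 cells. Trafficking receptors gave 2 calls of 17 tested, Ccr4 and S1pr1. There were 0 calls among 20 tested cytokine receptors, 15 transcription factors shared by T cell lineages and 15 glycolysis genes. The same held for 25 type I interferon response genes, 14 interferon gamma GTPases and 16 MHC class I genes. It also held for 19 immediate early genes and 10 heat shock genes. Without replicate 1, 1 glycolysis gene and 1 type I interferon response gene were called higher in CD4 cells.

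The last question was whether a difference between the cell types was of another size than in the other genotypes, which was tested as an interaction in the same fit. Against Tet2fl/fl controls 1 gene of 9082 was called (0.011%), Penk, which encodes the opioid precursor proenkephalin. In Vav1CreTet2KO mice Penk stood at 5.63, 34.9 and 0.748 RPKM in CD8 cells and at 53.3, 101.3 and 10.4 RPKM in CD4 cells, so that every animal was higher in CD4 cells (difference -2.42, SE 0.32, limma adjusted p = 0.0104). In controls it stood at 271, 197 and 121 RPKM in CD8 cells and at 64.8, 28.4 and 30.5 RPKM in CD4 cells, a difference of 2.25. The interaction, the first difference minus the second, was -4.66 (SE 0.45, limma adjusted p = 0.00955). In CD4 cells Penk overlapped between these genotypes, while every Vav1CreTet2KO CD8 library lay below every control CD8 library. Penk was no longer called in this comparison without Vav1CreTet2KO replicate 3 (limma adjusted p = 0.0975) or without any one of the control animals (0.0647 to 0.101). The same held without the animal block (limma adjusted p = 0.360) and with animal as a random effect (0.171). It also held with a pseudocount of 0.1 (limma adjusted p = 0.0811) and with no filter (0.393). In Cd4CreTet2KO mice Penk stood at 66.9, 4.97, 37.4 and 53.4 RPKM in CD8 cells and at 103, 74.9 and 87.1 RPKM in CD4 cells.

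The genes next in order missed the threshold against controls. Nrn1, a neuritin, stood at 2.15, 9.01 and 1.49 RPKM in CD8 cells and at 5.78, 8.82 and 2.58 RPKM in CD4 cells, with an interaction of -4.37 (limma adjusted p = 0.0752). In controls it stood at 42.3, 16.3 and 25.7 RPKM in CD8 cells and at 1.27, 1.601 and 0.161 RPKM in CD4 cells. Il7r, the interleukin 7 receptor of long-lived T cells, stood at 46.4, 62.02 and 89.02 RPKM in CD8 cells and at 40.4, 31.8 and 93.4 RPKM in CD4 cells, with an interaction of 2.34 (limma adjusted p = 0.0752). In controls Il7r stood at 18.1, 29.1 and 19.5 RPKM in CD8 cells and at 84.7, 115 and 72.9 RPKM in CD4 cells, without overlap. H2ac15, H1f5, Anpep, Eea1 and Nrgn had interactions of -2.003, -2.88, 3.44, -2.77 and -5.30 (limma adjusted p from 0.0752 to 0.0787). Without Vav1CreTet2KO replicate 1, 23 genes were called in this comparison.

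**Figure D5:**
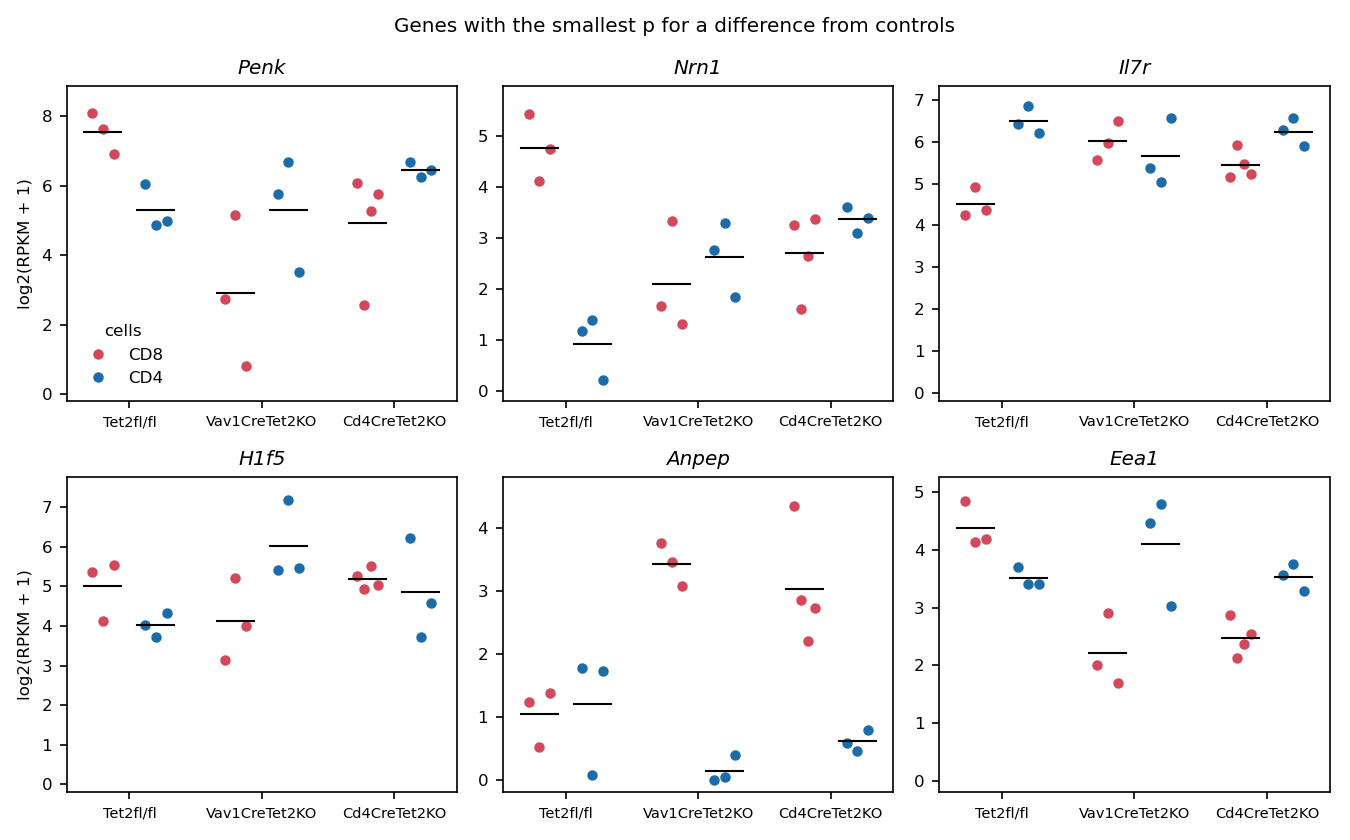
Levels of 6 genes as log2(RPKM + 1) in each library of the 3 genotypes, CD8 in red and CD4 in blue, with bars at the mean. Penk is higher in CD8 than in CD4 libraries of controls and lower in each Vav1CreTet2KO animal; the other 5 genes did not pass the interaction test.

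Of the 73 genes, 61 had a difference of the same sign in controls and 70 in the Cd4CreTet2KO mice with both cell types. This was not counted for all tested genes, so these shares have no background beside them. The genes called higher in CD8 cells had a median difference of 2.42 in Vav1CreTet2KO mice and 1.87 in controls, and those called higher in CD4 cells of -2.17 and -0.89. Since the genes were chosen in the first of these groups, their values there are larger by that choice. Naaa differed by 1.46 and Ifi205 by 1.54 in controls, Prf1 by 4.89, Nkg7 by 3.51 and Klrd1 by 3.99, and none of these passed the interaction test (limma adjusted p from 0.117 to 0.313). Against Cd4CreTet2KO mice, limma called 0 genes (0.0%), with 381 at an unadjusted p of 0.05; edgeR on recovered reads called 0 and DESeq2 called 18. A pseudogene and an unnamed gene model had the smallest p in that comparison, with interactions of -4.80 and -5.05 (limma adjusted p = 0.0962 for each). Of the named genes next in order, Tent5a differed by 2.40, Cd34 by 2.22, Bmyc by 2.04, Ccl1 by -4.37 and Ahcyl by -4.43 (limma adjusted p = 0.854 for each).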

How the data were processed

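RNA of sorted CD8 and CD4 T cells was measured in 19 libraries of 11 mice, of which 8 gave both cell types; each replicate is a separate animal. The tables deposited for CD8 and CD4 cells, 25639 genes each and joined here by name, hold the authors' RPKM values and, for CD4 cells only, read counts, per the file headers. The submitters' processing notes name GRCm38 and mm10; for the aligner and the strand setting, "not given in the sources used here" applies, and the tables' coordinates were not used. Of the per-sample columns, 18 were not used. The CD8 table holds RPKM and no counts, so a test on RPKM was the main one. Count tests were run on recovered reads as alternatives.

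limma 3.58.1 in R 4.3.3 was fitted with a trend to log2(RPKM + 1) of all 19 libraries, with animal as a block and cell type within genotype. A difference on this scale understates the change of low genes. Under the animal block, differences of Cd4CreTet2KO mice, and interactions against them, rest on the animals that gave both cell types. Pairing comes from the animal numbers of the labels. Same-animal deviations of the 3 Vav1CreTet2KO pairs correlated at 0.158, -0.061 and 0.332 across genes. Pairs of different animals of this genotype ran from -0.355 to 0.175, so only the third same-animal value lay above them. A gene length implied by the CD4 counts was missing for 1571 genes above 0 in CD8 cells. Elsewhere RPKM times this length gave whole reads for 100% of 134905 CD8 values (tolerance 0.01). These reads and the CD4 counts gave the depth, 707866 to 14539928 reads on genes in the 6 libraries, and were tested with edgeR 4.0.16 and DESeq2 1.42.0 as alternatives. Floors of 3 reads cover counting error only, as the values carry no molecular identifiers. Other settings were a pseudocount of 0.1, other filters and scalings, sample weights, no animal block or a random one, only the 6 libraries, and each animal left out. Scripts were tested on simulated data.

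Genes to be named were Tet2, the defining genes of 28 program lists, up to 6 called and 3 uncalled members of each, the 15 largest called changes per direction among genes whose mean log2 value was 2 or more, and the 8 smallest p of each interaction; lists with few or no calls are mostly given by counts, so part of these are not printed, and gene models and pseudogenes are left out. Receptor segments, histones and promoter genes were named after their values were seen. A further 12 lists held markers of other cells. The libraries and lists were chosen with earlier results of these data known. Lists are described by counts and medians, with no test of the list. Promoter windows came from RefSeq (GRCm38.p6).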

Additional observations from a re-analysis of the deposited data

Results flagged for a closer look

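The CD8 minus CD4 difference of Penk, the proenkephalin gene, differed between genotypes by -4.66 (SE 0.45, limma adjusted p = 0.00955 for the interaction of Vav1CreTet2KO against Tet2fl/fl): it was -2.42 in Vav1CreTet2KO mice, lower in CD8 cells in 3 of 3 animals, and 2.25 in controls. In Cd4CreTet2KO mice the difference was -1.06, of the same sign as in Vav1CreTet2KO mice. The call was lost without the animal block (limma adjusted p = 0.360) and with animal as a random effect (0.171). It was also lost with a pseudocount of 0.1 (limma adjusted p = 0.0811) and with no filter (0.393). Leaving out Vav1CreTet2KO replicate 3 (limma adjusted p = 0.0975) or any one control animal (0.0647 to 0.101) lost it too.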

How the results depend on the processing

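Genes called between CD8 and CD4 cells numbered 73 (61.6% of them higher in CD8 cells). The count was 8 with only the 6 Vav1CreTet2KO libraries in the fit, 38 with a pseudocount of 0.1 (52.6% higher in CD8 cells), 2 with no filter, 35 with sample quality weights (51.4%), 39 by edgeR (51.3%) and 663 by DESeq2, both on recovered reads, and 19 to 404 without 1 Vav1CreTet2KO animal. With a filter at 5 RPKM it was 54, with TMM scaling 86 and with size factors 87. The share higher in CD8 cells was 49.4% without replicate 1 and 77.0% without replicate 3. No called gene changed sign under any of these. Of the uncalled genes that were followed (67 to 85 by setting), 12 changed sign in at least 1 setting. Cd3e was -0.024 with size factors, -0.0067 with edgeR and -0.019 with DESeq2. Without 1 animal the ranges were -0.38 to 0.65 for Runx3, -0.35 to 0.037 for Cd28, -1.43 to 0.37 for Lag3, -0.21 to 0.14 for Tigit, -0.30 to 0.15 for Tcf7, -0.29 to 0.14 for Cd3d, -0.017 to 0.63 for Cd3g, -0.40 to 0.10 for Il2rb, -0.33 to 0.12 for B2m, -0.26 to 0.25 for Tet3 and -1.83 to 0.076 for Nrgn. The causes were not tested.

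The replicate block pairs libraries of 1 animal. Without it 158 genes were called (75.9% higher in CD8 cells), and with animal as a random effect 303 (73.9%); the interaction with controls then held 0 and 2 calls and that with Cd4CreTet2KO 0 and 2. Neither fit called Penk against controls (adjusted p = 0.360 and 0.171). Interaction calls against controls, 1 in the fit reported, were 0 with a pseudocount of 0.1, 0 with no filter, 4 at 5 RPKM, 19 with quality weights, 5 with edgeR, 214 with DESeq2 and 0 to 23 without 1 animal. Against Cd4CreTet2KO, 0 in the fit reported, they were 2 with no filter, 1 with size factors, 2 with weights, 18 with DESeq2 and 0 to 3 without 1 animal. In the shallow CD4 replicate 1, levels under about 1 RPKM for many genes could not be told from 0.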
